A study of Ricinus communis with 6 samples.

Results

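Transcripts of 2 genes of terpenoid synthesis were examined in the main stem of the castor bean, RcCAS (LOC8262543) and RcSeTPS10 (LOC8261702, also named TPS10). Both were chosen by name for the enzymes they encode, and each has 1 of the 18875 gene rows of the expression table. The dwarf variety 071113 (short-stalk, libraries D1, D2 and D3) was compared with the high-stalk variety Zhuansihao, which the sample labels spell Zhansihao (libraries L1, L2 and L3). All 6 libraries hold poly(A) mRNA of the 5th internode from field-grown plants at the stage of rapid growth with 8 to 10 leaves, with no treatment, and both varieties descend from crosses with the variety Zhebisi. Each stem height is represented by 1 variety, so stem height and any other difference between the varieties cannot be told apart. About 6 plants were dissected, and the sources used here do not say how many went into each library.

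Cycloartenol synthase folds oxidosqualene into cycloartenol, the entry step of sterol synthesis in plants. Plant sterols are parts of cell membranes, and one of them is the precursor of the brassinosteroid hormones, which promote the elongation of stems. Sesquiterpene synthases turn farnesyl diphosphate into sesquiterpenes, which often serve in defence. Squalene, from which oxidosqualene is made, is itself formed from farnesyl diphosphate, so the 2 enzymes stand on separate branches from a shared precursor.

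Values are FPKM, the fragments of a gene divided by the length of its transcript and by the mapped fragments of the library, as the authors computed them. They sum to between 585381 and 600050 per library, and between 718 and 1217 rows are listed at 0. Read numbers cannot be had from FPKM, so no counting interval is given. Relative depth was taken from the commonest ratio between low values, searched only near equal depth, so a depth close to that of D1 was set beforehand. Within this limit the other libraries came to 0.868 to 1.08 times the depth of D1. Each ratio was shared by only 20 to 47 genes, of 799 to 1314 compared. The study left D2 out of its comparison for its correlations with the other libraries and poor reproducibility among the metabolite measurements, so D1 and D3 were set against L1, L2 and L3 here, and the comparison over all 6 libraries stands beside it. In bulk tissue, fewer cells of a type and less RNA per cell cannot be told apart. Of a set of 8 cell cycle and 5 lignin genes named by the study, the cell cycle genes summed to 6.05 FPKM in D1 and 6.34 in D3 but 61.7 in D2, against 54.9 FPKM in L1, 18.5 FPKM in L2 and 20.5 FPKM in L3. The lignin genes summed to 22.0 FPKM in D1, 21.0 in D3 and 4.08 in D2, against 2.06 to 3.06 in the Zhuansihao libraries. The dwarf library D2 thus stood apart from D1 and D3 in both sets. The study named these genes from its comparison of D1 and D3 with Zhuansihao, so D1 and D3 differ from Zhuansihao in them by that choice.

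RcCAS was expressed in every library, and its level divided the dwarf libraries. It had 10.7 FPKM in D1, 12.9 in D3 and 56.1 in D2 of the dwarf variety, against 45.0 FPKM in L1, 20.8 FPKM in L2 and 25.0 FPKM in L3 of Zhuansihao. D1 and D3 were below each Zhuansihao library and D2 was above each of them, so the 2 varieties overlapped when D2 was counted. D1 and D3 were the lowest and D2 and L1 the highest libraries, as in 17.4% of the 16235 other genes past the filter described below. Without D2, the dwarf mean of 11.8 ± 1.56 FPKM (SD, n = 2) was 0.388 times the Zhuansihao mean of 30.3 ± 12.9 FPKM (SD, n = 3). With D2, the dwarf mean was 26.6 ± 25.6 FPKM (SD, n = 3). D2 alone had 1.85 times the Zhuansihao mean.

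From the lowest to the highest level of RcCAS, the libraries stood in the order D1, D3, L2, L3, L1 and D2. On the log2(FPKM + 1) scale, the steps between neighbours in this order were 0.25 from D1 to D3, 0.65 from D3 to L2, 0.26 from L2 to L3, 0.82 from L3 to L1 and 0.31 from L1 to D2. The SD among the Zhuansihao libraries was 0.56 on this scale (n = 3), so the steps from D1 to D3, from L2 to L3 and from L1 to D2 were smaller than this spread. Among the dwarf libraries the SD was 1.26 with D2 (n = 3), larger than each step in the order, and 0.18 without D2 (n = 2). D2 lay 0.95 from the mean of Zhuansihao and 2.17 from the mean of D1 and D3. Among all rows of its library, RcCAS stood at percentile 47.2 in D1, 50.8 in D3 and 87.4 in D2, against percentile 83.8 in L1, percentile 63.5 in L2 and percentile 68.8 in L3. It was thus near the middle of the table in D1 and D3 and in the upper part in the other 4 libraries.

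**Figure D1:**
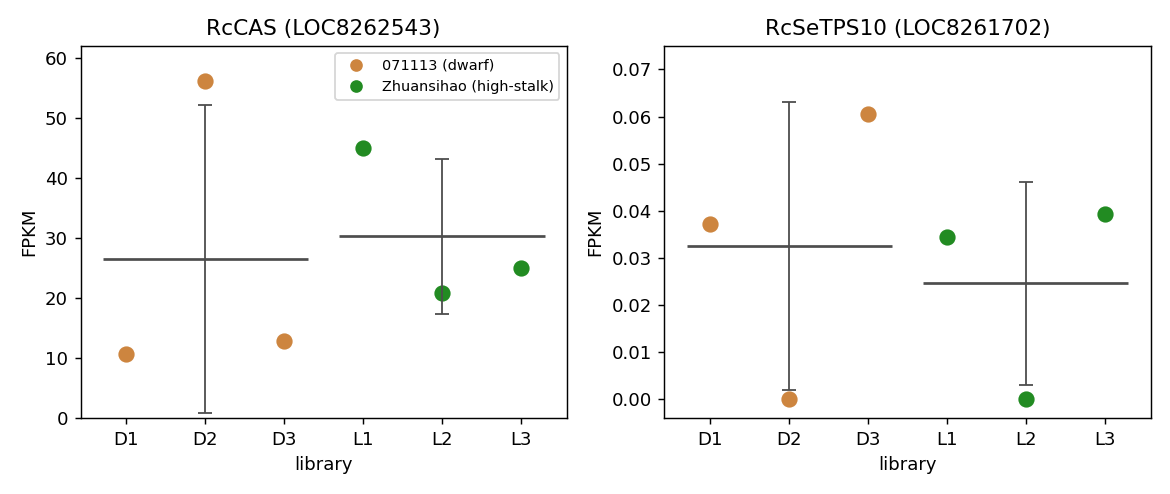
FPKM of RcCAS (left) and RcSeTPS10 (right, on a scale that ends at 0.075 FPKM) in the 6 libraries. Points are single libraries, and horizontal lines with bars are the mean and SD of the 3 libraries of a variety. RcCAS is lowest in D1 and D3 (10.7 and 12.9 FPKM) and highest in D2 (56.1), and RcSeTPS10 is listed at 0 in D2 and L2.

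A gene was tested if it had at least 1 FPKM in at least 2 of the libraries compared, and it was called where the adjusted p was under 0.05 and the log2 fold change reached 2 in either direction, as the study did. RcCAS passed this filter and RcSeTPS10 did not. Without D2, RcCAS had a log2 fold change, dwarf over high-stalk, of -1.22 (95% confidence interval -2.09 to -0.36, standard error 0.34). It did not pass the test over 15925 genes, with an adjusted p of 0.0726 from limma. Of the members, 0 were thus called, beside 6.96% of tested genes higher and 6.17% lower at the adjusted p alone, and 1.34% higher and 1.19% lower past both thresholds. The median log2 fold change of all tested genes was -0.06.

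Over all 6 libraries the log2 fold change of RcCAS was -0.50 (95% confidence interval -2.13 to 1.13, standard error 0.66), with an adjusted p of 0.844 from limma over 16236 genes. Here 0% of tested genes were higher and 0.0123% were lower, both at the adjusted p alone and past both thresholds. At an unadjusted p under 0.05, 834 genes were higher and 677 were lower. An exact permutation test of the mean log2(FPKM + 1) of RcCAS between the varieties, two-sided over all 6 libraries, gave p = 0.6, where 0.1 is the smallest value that 3 against 3 allows. Both intervals reach past a log2 fold change of -2, and the interval over all 6 libraries also includes values above 0.

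Leaving out L1, the Zhuansihao library with the highest RcCAS, brought the test without D2 past the adjusted p (0.0407) with a smaller log2 fold change of -0.91, short of the fold threshold. With any other of the 5 libraries left out, the adjusted p was between 0.0749 and 0.327 and the log2 fold change between -1.45 and -1.10. Over all 6 libraries the log2 fold change was -0.08 without D1, -0.20 without D3 and -0.18 without L1. Relative to actin (LOC8269707), the reference gene of the qPCR in the study, RcCAS averaged 0.203 ± 0.0395 times the actin FPKM in D1 and D3 (SD, n = 2), against 0.513 ± 0.209 in Zhuansihao (SD, n = 3), and the ratio in D2 was 1.01. Actin itself had 55.4 to 60.9 FPKM in the dwarf libraries and 55.8 to 60.3 in Zhuansihao, so the pattern of RcCAS was also present relative to this gene.

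**Figure D2:**
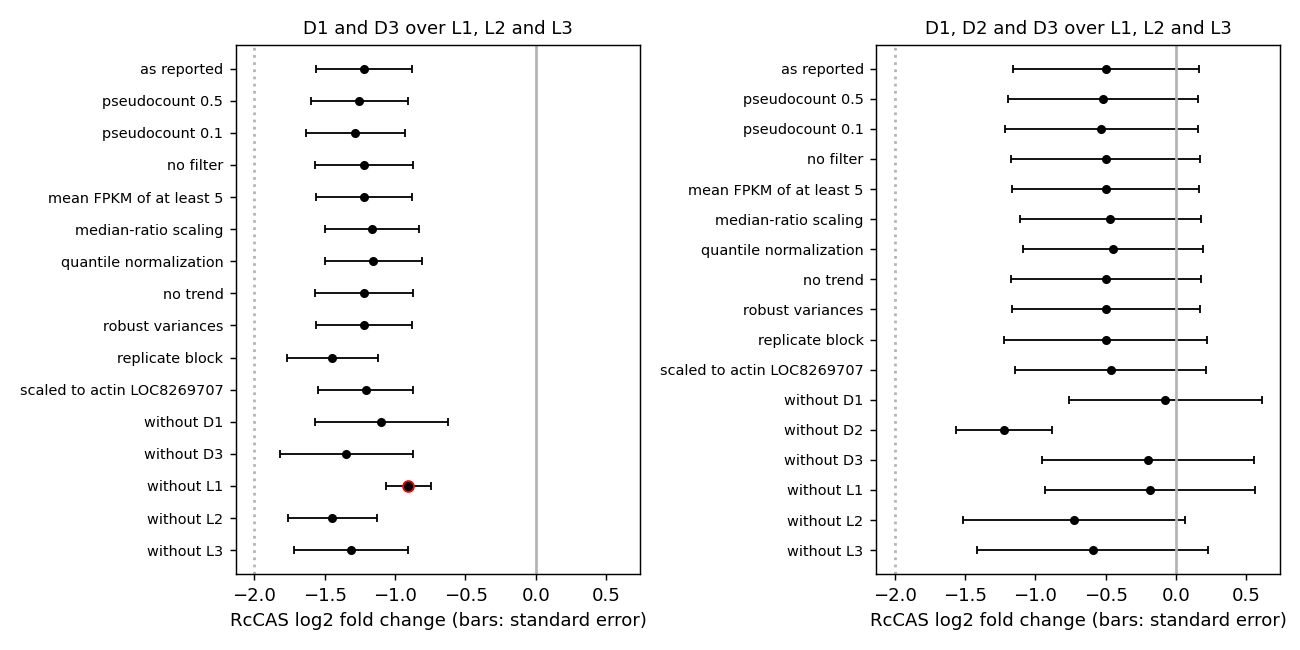
Log2 fold change of RcCAS, dwarf over high-stalk, as reported and under each alternative, without D2 (left) and over all 6 libraries (right). Points are limma estimates with bars of 1 standard error, the dotted line is the fold threshold of -2, and the red ring marks the setting with an adjusted p under 0.05. All points lie below 0, from -1.45 to -0.91 on the left and from -1.22 to -0.08 on the right.

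The level of RcCAS across the libraries ran beside that of the cell cycle genes. D2 and L1 had the highest and D1 and D3 the lowest levels in 8 of 8 of these genes, as in RcCAS, and in 2831 of the 16235 other genes past the filter (17.4%). The full order of the 6 libraries was the same as that of RcCAS in 2 of the 8 cell cycle genes and in 671 of the 16235 genes (4.13%), and it was the reverse in 323 (1.99%). The study chose the cell cycle genes on these libraries, so they are no independent evidence of a direction. Without D2, 5 of the 8 passed the filter, some of them only through the Zhuansihao libraries, where they are high, so no count of calls is given for them. The part of dividing cells in the level of RcCAS was not tested.

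None of the 5 lignin genes shared the full order of RcCAS. As only 4.13% of the 16235 other genes past the filter had this order, its absence does not set the lignin genes apart. In all 5 lignin genes D1 and D3 were the 2 highest libraries, a pattern whose share over all genes was not computed. The lignin genes, too, were chosen by the study from the same libraries. Without D2, 4 of the 5 passed the filter, and in these 4 it was reached only through D1 and D3, where they are high, so no count of calls is given for them either. PAL (LOC8272514), the enzyme that opens the phenylpropanoid pathway, had 4.15 FPKM in D1, 4.64 in D3 and 1.73 in D2, against 0.896 FPKM in L1, 1.11 FPKM in L2 and 0.567 FPKM in L3. RcCAS was therefore at its lowest in the libraries in which this lignin gene was at its highest.

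The genes whose levels were most like those of RcCAS were found by the Pearson correlation of log2(FPKM + 1) over the 6 libraries, among 16235 genes. They were LOC8267975 (r = 0.999), LOC8287373 (r = 0.999) and LOC8270611 (r = 0.998), none of which is named in the sources used here, and for all 3 the rank order of the libraries was that of RcCAS (rho = 1). As they were picked for the highest r of all genes and the libraries fall into groups of like samples, r is given as a description with no p. Without D1 and D2, the libraries farthest from the median of RcCAS, r was 0.998, 0.998 and 0.995 for the same genes. The libraries kept were among those used to pick the genes, so this is no separate check. LOC8267975 had 5.24 FPKM in D1, 6.66 in D3 and 37.9 in D2, against 31.9 FPKM in L1, 12.6 FPKM in L2 and 14.5 FPKM in L3. LOC8274440, a subunit of the origin recognition complex that marks the start sites of DNA replication, stood at rank 4 with r = 0.998. It had 0.456 FPKM in D1, 0.639 in D3 and 6.59 in D2, against 4.62 FPKM in L1, 1.88 FPKM in L2 and 2.34 FPKM in L3, and it is named here because it is one of the 8 cell cycle genes, outside the rule of the 3 highest. The rest of the 8 stood lower, from rank 543 (r = 0.979) to rank 2246 (r = 0.919).

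**Figure D3:**
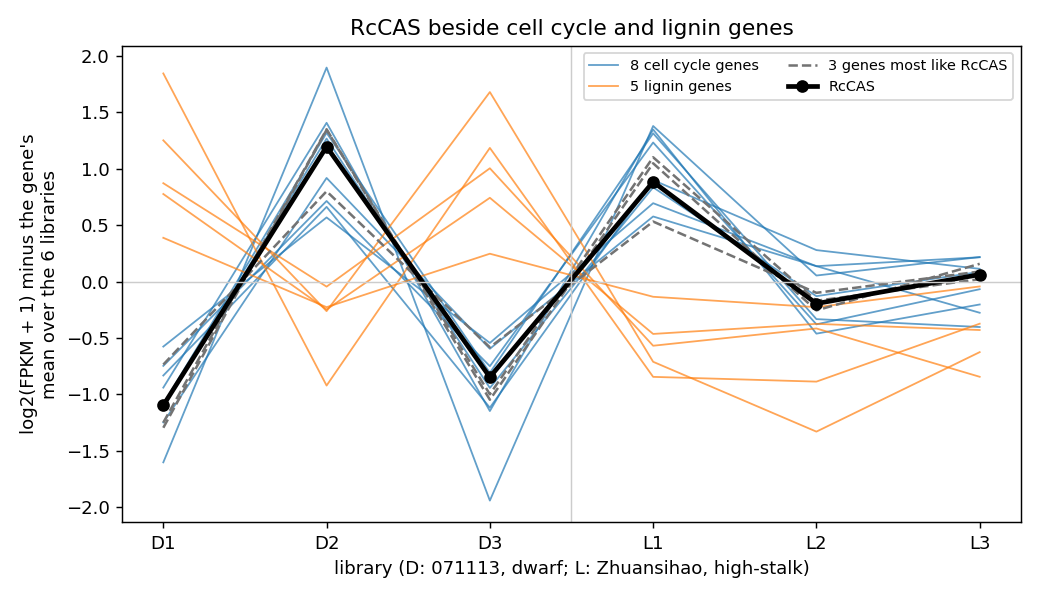
Log2(FPKM + 1) of each gene minus its own mean over the 6 libraries, for RcCAS (black), the 3 genes most like it (dashed grey), 8 cell cycle genes (blue) and 5 lignin genes (orange). RcCAS and the 8 cell cycle genes are high in D2 and L1 and low in D1 and D3, and the lignin genes are high in D1 and D3.

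RcSeTPS10 was at the lower limit of the measurement in both varieties. It had 0.0372 FPKM in D1 and 0.0605 in D3 and was listed at 0 in D2, against 0.0344 in L1 and 0.0394 in L3 and a listing at 0 in L2. The 2 varieties overlapped, and each had 1 library listed at 0. In the 4 libraries with a value, between 142 and 395 of all rows had a lower value above 0, so RcSeTPS10 was among the least abundant transcripts with any signal. Its value in L1 was 0.926 times that in D1, where the commonest ratio between low values of these libraries was 0.932, and its value in L3 was 1.06 times that in D1, where the commonest ratio was 1.07. If those relative depths hold, these ratios are near what the same number of fragments in D1, L1 and L3 would give, which was not tested. The value in D3 was 1.63 times that in D1, between the commonest ratio of 0.929 and its double.

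RcSeTPS10 was below the filter in both comparisons and was therefore not tested. The difference of its mean log2(FPKM + 1), dwarf minus high-stalk, was 0.03 without D2 and 0.01 over all 6 libraries. Without the filter limma gave an adjusted p of 0.722 without D2 (95% confidence interval -0.12 to 0.19) and 0.957 over all 6 libraries (-0.12 to 0.14). The two-sided exact permutation test over all 6 libraries gave p = 0.8. A difference between the varieties was not detectable at this level, and at values this close to 0 the log2(FPKM + 1) scale compresses any difference. RcCAS was above RcSeTPS10 in every library, with 287 times its FPKM in D1, 213 times in D3, 1309 times in L1 and 635 times in L3. As these ratios divide by RcSeTPS10 values near 0, they are no comparison of the varieties. No ratio is given for D2 and L2, where RcSeTPS10 was listed at 0.

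Of the other genes named as terpene synthases in the castor RefSeq annotation, 3 have a row in the table, all of the RcSeTPS series of sesquiterpene synthases. Like RcSeTPS10, all 3 were below the filter in both comparisons. RcSeTPS5 (LOC8282476) had 0.0390 FPKM in D1, 0.264 in D2 and a listing at 0 in D3, against 0.599 FPKM in L1, 0.917 FPKM in L2 and 1.19 FPKM in L3. Each dwarf library, D2 included, was below each Zhuansihao library, which held for 7.00% of all rows in the table. Without the filter, RcSeTPS5 was lower in D1 and D3 at the adjusted p (log2 fold change -0.89, standard error 0.15, adjusted p = 0.0359 from limma) and did not pass over all 6 libraries (-0.78, standard error 0.16, adjusted p = 0.290). Of all genes so tested, 4.28% were lower without D2 and 0.0106% over all 6 libraries. The pseudocount of 1 is larger than most of these values, so the log2 fold change understates their ratio.

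RcSeTPS1 (LOC8280754) had 0.0286 FPKM in D1, 0.0882 in D2 and a listing at 0 in D3, against 0.457 FPKM in L1, 0.0526 FPKM in L2 and 0.131 FPKM in L3. Its varieties overlapped through D2 and L2, and without the filter limma gave it a log2 fold change of -0.24 without D2, which did not pass (adjusted p = 0.334). RcSeTPS7 (LOC8267421) was listed at 0 in each dwarf library and in L1 and L2, and had 0.0402 FPKM in L3 (log2 fold change -0.02 without the filter and without D2, adjusted p = 0.843). RcSeTPS5 was thus the only one of the 4 RcSeTPS genes in the table that reached 1 FPKM in a library, and the only one whose varieties did not overlap.

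**Figure D4:**
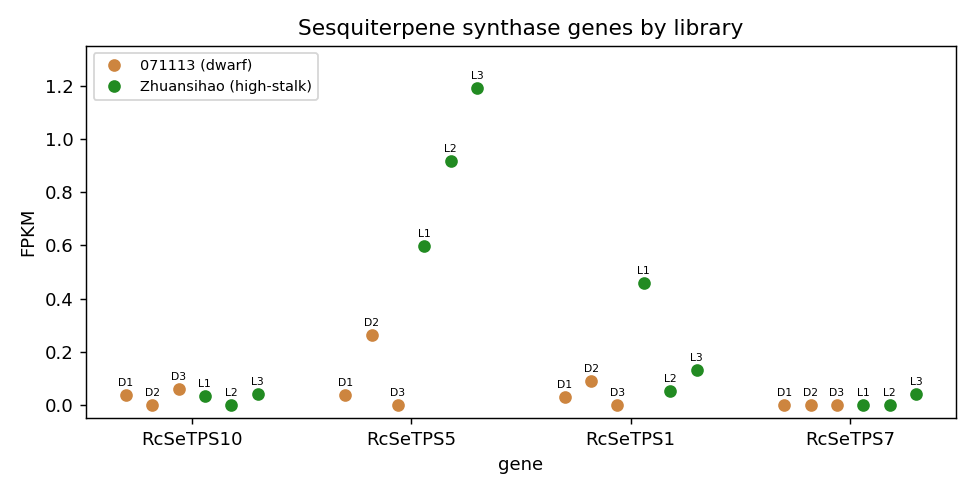
FPKM of RcSeTPS10 and of the 3 other RcSeTPS genes in the table, with each library named above its point. RcSeTPS5 lies between 0.599 and 1.19 FPKM in Zhuansihao and at or below 0.264 in the dwarf libraries, and RcSeTPS10 is at most 0.0605 in all 6 libraries.

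The genes that flank both members were taken from the castor RefSeq assembly ASM1957865v1, 3 genes of the table on each side. Annotated genes without a row in the table were passed over, between 0 and 5 of them at each step, so the genes named are the nearest with a value and need not be adjacent. The build of the FPKM table is not given in the sources used here, so no coordinates are printed. None of the flanking genes is named in these sources. No count of calls without D2 is given for the 6 neighbours of RcCAS. LOC8281897 entered that test only through D1 and D3, and LOC8262546 only through the Zhuansihao libraries. LOC8262550 had 54.9 FPKM in D1, 55.1 in D3 and 43.7 in D2, against 34.6 FPKM in L1, 34.9 FPKM in L2 and 30.2 FPKM in L3 (log2 fold change without D2 0.71, adjusted p = 0.0216 from limma). At the adjusted p alone, 6.96% of all tested genes were higher. Each dwarf library, D2 included, was above each Zhuansihao library in LOC8262550, an order whose share over all rows was not computed. The reverse, each dwarf library below each Zhuansihao library, held for 7.00% of all rows. LOC8281897 had 4.35 FPKM in D1, 3.20 in D3 and 0.525 in D2, against 0.651 FPKM in L1, 0.542 FPKM in L2 and 0.713 FPKM in L3 (log2 fold change without D2 1.54). It passed the filter only through D1 and D3, where it is high, so no adjusted p without D2 is given for it. The nearest gene with a value on the other side, LOC8262546, from which 3 annotated genes separate RcCAS, had 0.473 FPKM in D1, 0.442 in D3 and 7.46 in D2, against 6.02 FPKM in L1, 1.29 FPKM in L2 and 1.45 FPKM in L3 (log2 fold change without D2 -1.22). Without D2 it passed the filter only through the Zhuansihao libraries, where it is high, so no adjusted p is given for it. The level of LOC8262546 was high in D2 and L1 and low in D1 and D3, as was that of RcCAS, whereas LOC8281897 was high in D1 and D3.

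The low level of RcSeTPS10 was not shared by the nearest gene with a value on one side, LOC8261703, from which 1 annotated gene separates it. LOC8261703 had 6.35 FPKM in D1, 19.3 in D3 and 136 in D2, against 273 FPKM in L1, 51.7 FPKM in L2 and 55.6 FPKM in L3. D1 and D3 were its lowest and D2 and L1 its highest libraries, as in 17.4% of genes past the filter. LOC8261703 did not pass the test (limma without D2, log2 fold change -2.94 with a standard error of 0.87, adjusted p = 0.0831). On the other side, LOC8261704 was listed at 0 in L3 and had at most 1.20 FPKM, in D3. Of the 6 neighbours of RcSeTPS10, 4 passed the filter, and 1 of these was lower and 0 higher in D1 and D3, beside 6.17% and 6.96% of all tested genes. The median log2 fold change of the 4 was -1.34, beside -0.06 over all tested genes. The gene called was LOC8275136, which passed both thresholds, as did 1.19% of tested genes in this direction (log2 fold change -2.20, standard error 0.34, adjusted p = 0.0238 from limma). It had 1.94 FPKM in D1, 2.56 in D3 and 6.98 in D2, against 20.0 FPKM in L1, 14.8 FPKM in L2 and 8.94 FPKM in L3. Each dwarf library was thus below each Zhuansihao library, as in 7.00% of all rows in the table. With D1 or D3 left out as well as D2, 0 genes of the table were called, LOC8275136 included. Over all 6 libraries 0 neighbours of either member passed, with adjusted p from 0.340 to 0.911. LOC8281897 entered this test, too, only through D1 and D3.

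**Figure D5:**
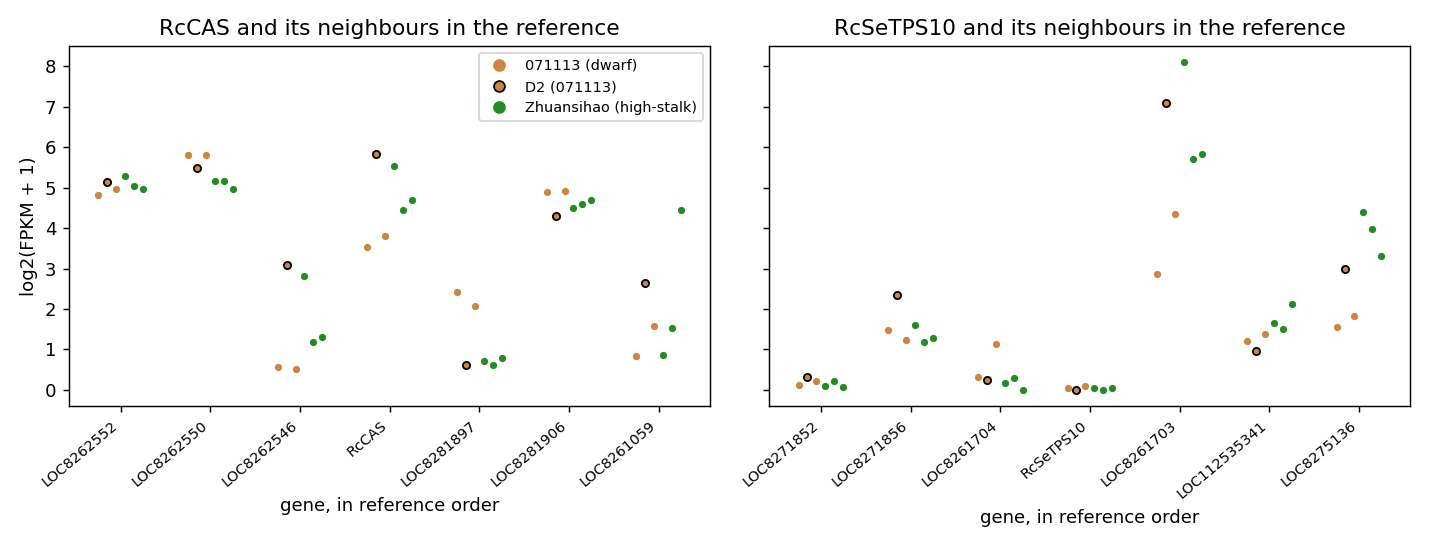
Log2(FPKM + 1) of RcCAS (left) and RcSeTPS10 (right) with 3 genes of the table on each side, in the order of the RefSeq assembly, leaving out genes without a row. Points are single libraries in the order D1, D2, D3, L1, L2 and L3 from left to right, and D2 is ringed. RcSeTPS10 lies at the floor in all 6 libraries beside LOC8261703, which has 6.35 to 136 FPKM in the dwarf libraries and 51.7 to 273 in Zhuansihao.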

How the data were processed

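The deposited FPKM values were made by the authors from filtered reads of poly(A) libraries sequenced on the Illumina HiSeq platform, 1 value per gene and library, with replicates not pooled. Which aligner, counter and build were used is not given in the sources used here. While the study tested read counts, FPKM values do not hold them.

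Values were analysed as log2(FPKM + 1) in R 4.3.3 by limma 3.58.1, with a trend of the variance on the mean level and p-values adjusted over all genes tested (Benjamini-Hochberg). p-values measure the spread between these libraries. Permutation tests and figures used Python 3.11.15, scipy 1.17.1 and matplotlib 3.10.9.

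The 2 members, the lists and the tests were chosen with earlier results of these data known. Genes were named by rule: the members, list genes found by symbol, 3 neighbours on each side, and the 3 genes most like each member. For RcSeTPS10 the last were not given, since its 6 values are near 0. Of 4 lists, those of the mevalonate pathway, sterol synthesis and other oxidosqualene cyclases matched 0 genes by symbol and that of terpene synthases matched 3. The RefSeq table used here pairs no descriptions with the genes. A comparison by protein sequence was not made. Of the table's rows, 18432 matched a RefSeq gene. Alternatives were other pseudocounts, filters, scalings and variance models, the replicate number as a block, and each library left out in turn. Scaling to actin was chosen after seeing the data.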

Additional observations from a re-analysis of the deposited data

How the results depend on the processing

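Under 10 other settings, the log2 fold change of RcCAS stayed between -1.45 and -1.16 without D2 (adjusted p from 0.0694 to 0.110) and between -0.53 and -0.45 over all 6 libraries (adjusted p from 0.825 to 0.958). With each library left out it lay between -1.45 and -0.91 without D2, where leaving out L1 took it past the adjusted p, and between -1.22 and -0.08 over all 6. The RcSeTPS10 difference was 0.0656 with a pseudocount of 0.5 and 0.27 with 0.1 without D2, and 0.0775 with 0.1 over all 6. It lay between 0.02 and 0.05 and between -0.01 and 0.03 with each library left out. Its exact permutation p was 0.4 to 1, and 1 without D3 or L2, where the sign turned. That of RcCAS was 0.2 to 1, with 0.2 reached without D2, the smallest value that 2 against 3 allows. RcSeTPS10 has no value under settings of the test alone, nor at a mean of at least 5 FPKM, since it is below the filter, and quantile normalization was run for it only in the permutation test.

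Without D2, 403 genes were called, and 674 with a pseudocount of 0.1. With each library left out, 0 to 364 were called, with 0 without D1 or D3 (2710 and 2999 genes at an unadjusted p under 0.05). Over all 6 libraries 2 were called, 1 at a mean of at least 5 FPKM, and 0 to 403 with each library left out. With the replicate number as a block, 0 genes were called in either comparison (4584 and 1072 at an unadjusted p under 0.05). RcCAS then had a log2 fold change of -1.45 without D2 (adjusted p = 0.110), a fit to which L2 adds nothing as its number has no partner, and -0.50 over all 6 (adjusted p = 0.958). The numbers do not pair the libraries, since deviations from the variety mean correlated across genes at -0.474 for number 1, -0.553 for number 2 and 0.330 for number 3, and no dwarf library correlated best with its own number. With 1 dwarf library left, that library is assumed to vary like those of Zhuansihao.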

Other observations

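Of the 52 genes past the filter that have a single row and a name in the castor RefSeq table besides RcCAS, the ones with levels most like those of RcCAS were G3PDH (LOC8260718, r = 0.991 over the 6 libraries, rank 149 of 16235) and KAS1 (LOC8264135, r = 0.980, rank 493), a condensing enzyme of fatty acid synthesis in plastids. They were chosen after their values were seen. KAS1 had 20.7 FPKM in D1, 19.2 in D3 and 64.6 in D2, against 55.9 FPKM in L1, 34.0 FPKM in L2 and 31.0 FPKM in L3. G3PDH had 8.97 FPKM in D1, 10.1 in D3 and 21.5 in D2, against 18.5 FPKM in L1, 13.8 FPKM in L2 and 13.2 FPKM in L3. As in RcCAS, D1 and D3 were below each Zhuansihao library and D2 was above each. In both genes D1 and D3 were the lowest and D2 and L1 the highest libraries, as in 17.4% of genes past the filter. The log2 fold change without D2 was -0.93 for KAS1 and -0.61 for G3PDH. Both genes were picked for their likeness to RcCAS over these libraries, so their order and fold changes are a description, given with no adjusted p.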
